A study of Mus musculus with 6 samples.

Results

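The integrin subunit genes described here are 10 genes, Itga1, Itga2, Itga3, Itga5, Itga6, Itgav, Itgb1, Itgb3, Itgb4 and Itgb6, of 18193 genes that the arrays measured with a probe set of a single symbol. They were chosen by name. Each was read at its brightest probe set, the one with the highest mean over the 6 arrays, and all 10 had one. RNA came from pancreatic tumour cells of C57BL/6 mice at 11 weeks of age, and each of the 6 samples was hybridised to 1 Affymetrix mouse array. All samples carry the tumour alleles that the labels spell KeasG12D/+;p53f/f;ptf1a-Cre, in which Cre recombinase, driven from the Ptf1a locus in pancreatic progenitor and acinar cells, acts on a conditional p53 allele. The 3 wild-type samples have these alleles with Msi1 intact, and the 3 Msi1-null samples have them with the genotype Msi1 -/-. The labels do not say how the Msi1 allele was inactivated. Musashi 1, the protein Msi1 encodes, binds RNA and marks progenitor cells of several tissues.

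Integrins are the receptors by which cells hold on to the extracellular matrix. An α subunit pairs with a β subunit at the cell surface, and the pair decides which ligand is bound: collagens, laminins, or proteins with an arginine-glycine-aspartate (RGD) motif such as fibronectin and vitronectin. Inside the cell, talin and kindlins bind the β tails and connect them to actin, while the β4 tail connects to keratin filaments in hemidesmosomes. In pancreatic tumours integrins are known from the carcinoma cells and also from fibroblasts, vessels and leukocytes around them.

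The arrays had median deposited intensities between 159.3 and 164.4. The 95th percentile of 43 olfactory receptor probe sets, taken as the array background, lay between 154 and 168. The 3 probe sets of Msi1 were dim in both genotypes. The brightest read 144, 150.4 and 257 in wild-type replicates 1, 2 and 3 and 141, 168 and 127 in the Msi1-null replicates. Their place relative to the inactivated part of the gene is unknown, and they are no check of the labels. Wild-type replicate 3 stood apart in sex-linked transcripts, with Xist at 6226 against 131 to 387 in the other arrays and Eif2s3y at 88.2 against 716 to 944. All 10 epithelial markers exceeded the background in every array, as did all 9 fibroblast, 9 myeloid, 9 endothelial and 7 mural and smooth muscle markers, so stromal transcripts were measured in the material labelled as tumour cells. In such bulk RNA, fewer cells of a type and less RNA per cell cannot be told apart. Nothing in the labels ties each sample to its own animal, and the p-values below therefore reflect sample-to-sample spread, which may be technical.

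Integrin transcript levels were compared between tumours lacking Msi1 and tumours that carry it. None of the 10 passed the test. Differences were positive for 5 genes (Itga1, Itga5, Itga6, Itgb3 and Itgb4) and negative for 5 (Itga2, Itga3, Itgav, Itgb1 and Itgb6); over all genes 50.3% were positive. They ran on the log2 scale from -0.16 for Itga3 to 0.21 for Itga1. Their median was -0.01, against 0.00 (0.0023) over all probe sets tested. With limma, 0 of 10 genes had an adjusted p below 0.05 and 0 of 10 an unadjusted p below 0.05. Over all 45037 probe sets those shares were 0.0% and 3.01%. The genotypes overlapped at all 10 genes; they did not overlap at 7.79% of all probe sets and at 8.28% of genes read at their brightest probe set. Adjusted p-values were 0.9997 for every integrin gene (limma, Benjamini-Hochberg), so only exact permutation values are given below, where 20 assignments of 3 against 3 arrays allow no p below 0.1. Intensities of different probe sets depend on their probes and are not compared between genes.

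**Figure D1:**
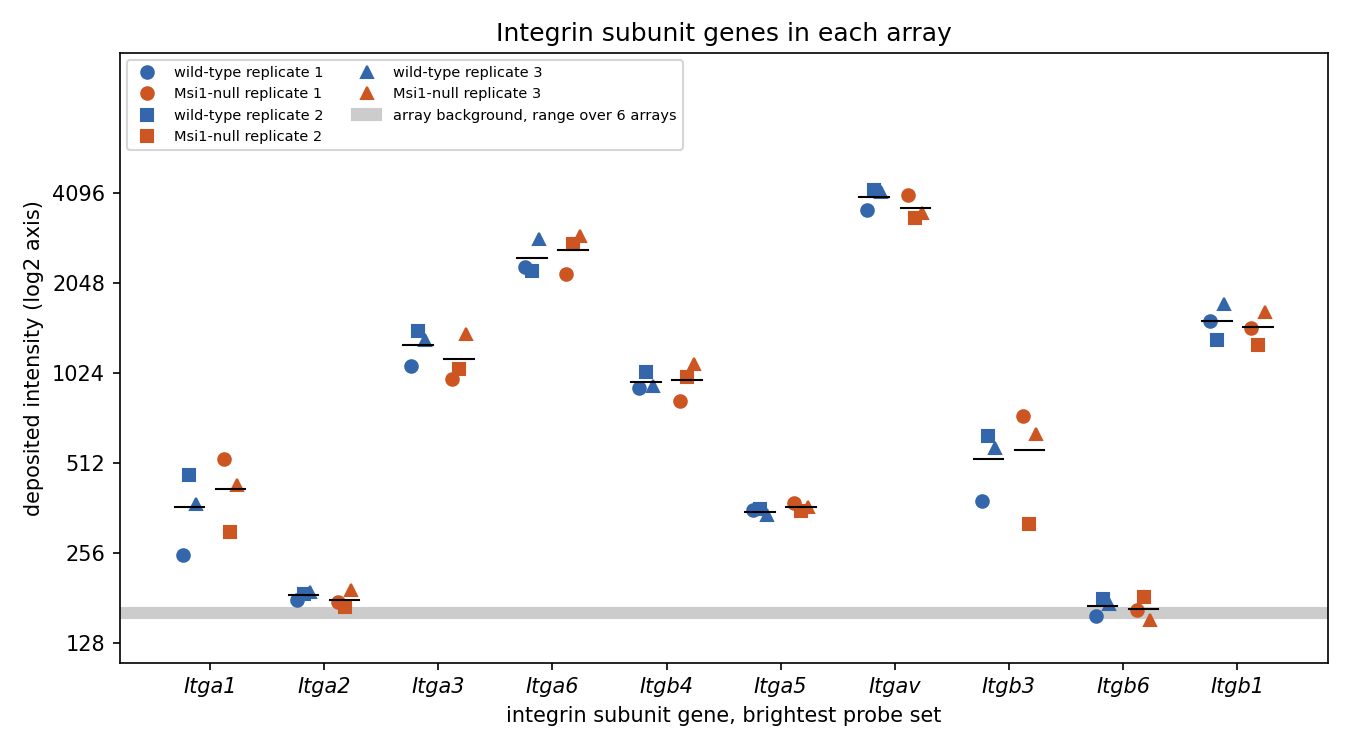
Deposited intensity (log2 axis) of the 10 integrin genes at their brightest probe set in each array; blue symbols are wild-type and orange symbols Msi1-null replicates, symbol shape gives the replicate number, black lines are group means of the intensities and the grey band is the range of array background. The genotypes overlap at every gene, Itga1 and Itgb3 spread most over the arrays, Itga2 lies a little above the background and Itgb6 at it.

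Among the receptors for collagen, Itga1 encodes α1, which pairs with β1, prefers basement membrane collagen and is found on mesenchymal, vascular and some immune cells. Its intensities were 252, 467 and 372 in wild-type replicates 1, 2 and 3 and 527, 299 and 433 in Msi1-null replicates 1, 2 and 3. The highest array was Msi1-null replicate 1 and the lowest wild-type replicate 1, with the other arrays of both genotypes mixed between them. The group means, 364 ± 108 for wild-type and 419.7 ± 114 for Msi1-null (SD, n = 3), gave a log2 difference of 0.21 ± 0.27 (SE; 95% interval -0.42 to 0.84; exact two-sided permutation p = 0.6). Without wild-type replicate 1 the difference was -0.03. The second Itga1 probe set, 1439713_at, read between 90.9 and 111.5, below the background.

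Itga2 encodes α2, the partner of β1 on epithelial cells and platelets that binds fibrillar collagen. Its single probe set read 178, 187 and 189 in wild-type and 175, 169 and 193 in Msi1-null arrays. These values lie within a narrow band a little above the background, where background correction can shrink differences of a dim transcript. Whether it did so here was not tested. The log2 difference was -0.05 ± 0.07 (SE; 95% interval -0.22 to 0.12; exact permutation p = 0.5).

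Among the receptors for laminin, Itga3 encodes α3, which pairs with β1 and anchors epithelial cells to basement membrane laminins. It read 1079, 1411 and 1319 in wild-type and 978, 1056 and 1382 in Msi1-null arrays. Msi1-null replicates 1 and 2 were the lowest arrays, while Msi1-null replicate 3 lay among the wild-type arrays. The means of 1269.7 ± 172 and 1138 ± 214 (SD, n = 3) gave a log2 difference of -0.16 ± 0.17 (SE; 95% interval -0.56 to 0.23; exact permutation p = 0.4). The other Itga3 probe sets differed by -0.07 ± 0.15 (1421997_s_at) and 0.08 ± 0.06 (1460305_at, SE). At 1460305_at the genotypes did not overlap, with a highest wild-type value of 154.2 and a lowest Msi1-null value of 154.4. It was the only one of the 28 integrin probe sets without overlap, and it lay at the background.

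Itga6 encodes α6, the laminin receptor subunit that pairs with β4 in hemidesmosomes and with β1 elsewhere. It was clearly expressed, at 2308, 2236 and 2865 in wild-type and 2185, 2768 and 2944 in Msi1-null arrays. The third replicate was the highest array of each genotype, and Msi1-null replicate 1 the lowest of all. Its log2 difference was 0.09 ± 0.15 (SE; 95% interval -0.26 to 0.44; exact permutation p = 0.8), and the second probe set, 1422444_at, gave 0.02 ± 0.20 (SE). Itgb4, the β4 subunit with a long cytoplasmic tail that binds plectin, read 911, 1027 and 928 in wild-type and 826, 989 and 1097 in Msi1-null arrays. The wild-type values fell inside the Msi1-null range. The means of 956 ± 62.6 and 971 ± 136 (SD, n = 3) gave a log2 difference of 0.01 ± 0.13 (SE; 95% interval -0.30 to 0.33; exact permutation p = 1.0). Both subunits of the α6β4 receptor were thus measured well above background, and the upper ends of their intervals were 0.44 for Itga6 and 0.33 for Itgb4.

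Among the receptors for RGD ligands, Itga5 encodes α5, the partner of β1 in the main fibronectin receptor. It read 355, 358 and 341 in wild-type and 375, 354 and 366 in Msi1-null arrays. It varied least over the arrays of the 10 genes, with a highest over lowest ratio of 1.10, and only Msi1-null replicate 2 fell among the wild-type values. The log2 difference was 0.06 (0.055 ± 0.081, SE; 95% interval -0.14 to 0.25; exact permutation p = 0.3). The other 3 Itga5 probe sets gave differences between -0.09 and -0.03.

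Itgav encodes the αv subunit, which pairs with β1, β3, β5, β6 and β8 and binds vitronectin and latent TGF-β. It read 3577, 4185 and 4106 in wild-type and 4024, 3382 and 3513 in Msi1-null arrays. Msi1-null replicates 2 and 3 were the lowest arrays, while Msi1-null replicate 1 lay inside the wild-type range. The means of 3956 ± 331 and 3639.6 ± 339 (SD, n = 3) gave a log2 difference of -0.12 ± 0.11 (SE; 95% interval -0.37 to 0.13; exact permutation p = 0.2). Of the 4 dimmer Itgav probe sets, 1421198_at exceeded the background in all 6 arrays and gave -0.11 ± 0.12 (SE). The others were below background in every array and gave differences between 0.02 and 0.05.

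Itgb3 encodes β3, which pairs with αv on angiogenic endothelium, macrophages and some carcinoma cells and with αIIb on platelets. It read 381, 629 and 574 in wild-type and 732, 320.04 and 641 in Msi1-null arrays. Of the 10 genes it had the widest range, with a highest over lowest ratio of 2.29, and both extremes were Msi1-null arrays. The log2 difference of 0.04 ± 0.33 (SE; 95% interval -0.72 to 0.81; exact permutation p = 0.9) therefore says little about Itgb3 in either direction. Leaving out wild-type replicate 1 gave -0.18, and leaving out Msi1-null replicates 1, 2 and 3 gave -0.19, 0.41 and -0.09.

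Itgb6 encodes β6, an epithelial subunit that pairs only with αv and activates latent TGF-β. It read 158, 179 and 172 in wild-type and 165, 182 and 152 in Msi1-null arrays, above the array background in 4 of 6 arrays. Its second probe set, 1432281_a_at, stayed between 112 and 124, so no Itgb6 level clearly above background was measured in either genotype. The log2 difference at the brighter probe set was -0.03 ± 0.09 (SE; exact permutation p = 0.8).

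Itgb1 encodes β1, the common partner of the collagen, laminin and fibronectin receptor α subunits. At 1426918_at it read 1528, 1315 and 1742 in wild-type and 1448, 1271 and 1636 in Msi1-null arrays. In each genotype replicate 3 was the highest array and replicate 2 the lowest. The means of 1529 ± 213 and 1451.5 ± 183 (SD, n = 3) gave a log2 difference of -0.07 ± 0.15 (SE; 95% interval -0.42 to 0.27; exact permutation p = 0.7). Of its 6 probe sets 4 exceeded the background in all arrays, and these gave differences between -0.17 (1452545_a_at) and -0.06 (1426920_x_at).

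**Figure D2:**
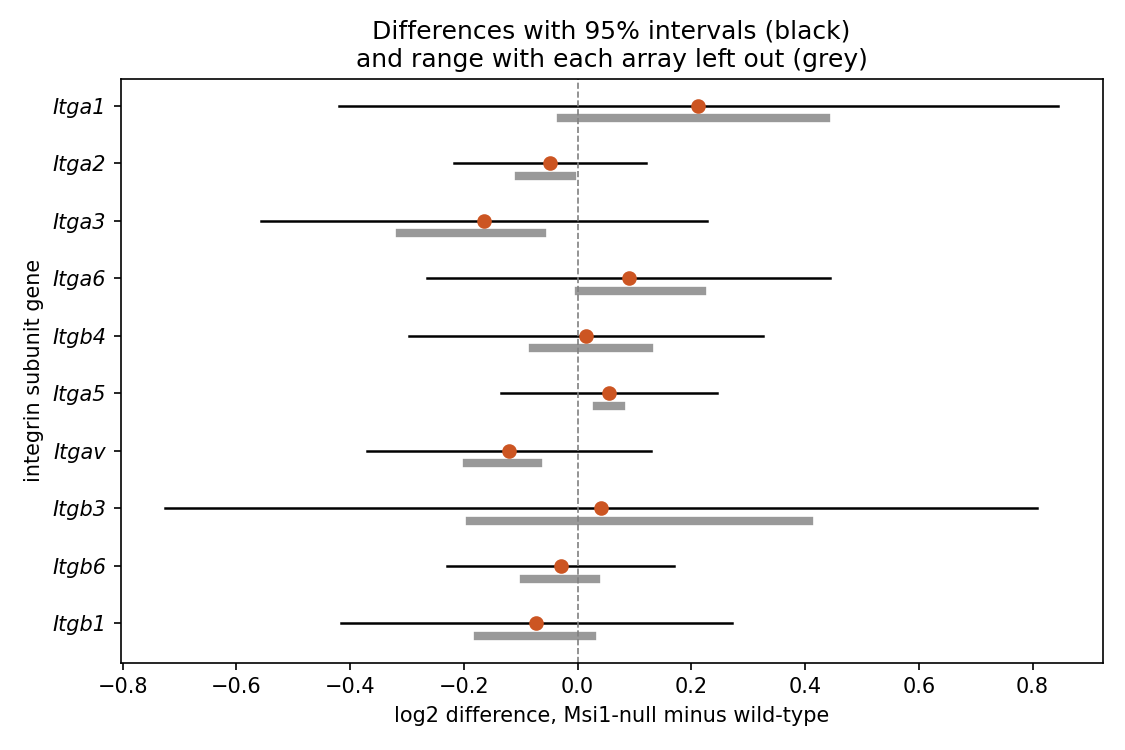
Log2 difference, Msi1-null minus wild-type, of each integrin gene (orange points) with its 95% limma interval (black lines) and the lowest to highest value when each array was left out in turn (grey bars). Every interval includes 0; it is widest for Itgb3 (-0.72 to 0.81) and narrowest for Itga2 (-0.22 to 0.12).

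Across the 28 probe sets of the 10 genes, 13 differences were positive and 15 negative, from -0.17 to 0.21, and 17 probe sets exceeded the background in all 6 arrays. The smallest unadjusted value in the limma fit was 0.222, at the dim Itga3 probe set. The members differed more in their spread than in their group difference. The pooled SD within genotypes, on the log2 scale, was 0.53 for Itgb3 and 0.43 for Itga1, larger than that of 97.6% and 96.0% of genes read at their brightest probe set. It was 0.08 for Itga2 and 0.04 for Itga5, smaller than in most genes, with 31.4% and 5.95% of genes below them.

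Itga1 and Itgb3, the genes of widest spread, were both high in Msi1-null replicate 1 (0.47 and 0.48 above their mean over the 6 arrays, log2) and wild-type replicate 2 (0.30 and 0.26), and low in wild-type replicate 1 (-0.59 and -0.46) and Msi1-null replicate 2 (-0.34 and -0.71). The mean of 7 mural and smooth muscle markers was likewise highest in Msi1-null replicate 1 (1.09) and wild-type replicate 2 (0.67) and lowest in wild-type replicate 1 (-0.69) and Msi1-null replicate 2 (-0.61). In Msi1-null replicate 3 these markers were below their mean (-0.30), whereas Itga1 and Itgb3 were above theirs (0.19 and 0.29), and in wild-type replicate 3 they were below it (-0.17) while Itgb3 was above (0.13) and Itga1 near its mean (-0.03). Their summed intensity ranged from 8213 to 17968 in wild-type and from 9743 to 22745 in Msi1-null arrays. The mean of 9 endothelial markers was 0.32 in Msi1-null replicate 1, 0.15 in wild-type replicate 2 and 0.10 in Msi1-null replicate 3, and -0.32, -0.13 and -0.12 in wild-type replicates 1 and 3 and Msi1-null replicate 2, with summed intensities of 5280 to 7244 in wild-type and 5928 to 8773 in Msi1-null arrays. The 9 myeloid markers ran from -0.32 in Msi1-null replicate 2 to 0.43 in Msi1-null replicate 1, with sums of 31777 to 37983 and 27995 to 45939. The mean of 9 fibroblast markers was also highest in Msi1-null replicate 1 (0.34) and lowest in Msi1-null replicate 2 (-0.30). It was, however, 0.18 in wild-type replicate 1, where Itga1 and Itgb3 were low. In wild-type replicate 2, where both were high, it was -0.03 (-0.025), and in wild-type and Msi1-null replicates 3 it was -0.11 and -0.08. The mean of 9 collagen chains was above 0 in the same 4 arrays as Itgb3, from 0.06 in wild-type replicate 3 to 0.31 in Msi1-null replicate 1, and at -0.26 (-0.255) and -0.43 in wild-type replicate 1 and Msi1-null replicate 2. None of these markers was below background in all arrays, and their part in the values of Itga1 and Itgb3 was not tested. The mean of 5 platelet markers was 0.34 in Msi1-null replicate 3, 0.21 in wild-type replicate 3 and 0.02 in Msi1-null replicate 1, where Itgb3 was also above its mean. It was -0.43 in wild-type replicate 1 and -0.10 in Msi1-null replicate 2, where Itgb3 was also low. In wild-type replicate 2 it was -0.04, whereas Itgb3 was high. The platelet mean was highest in Msi1-null replicate 3, and Itgb3 in Msi1-null replicate 1. Of these markers 2 of 5, Gp9 and Treml1, stayed below background in all arrays, and their part in the values of Itgb3 was not tested.

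The laminin receptor genes had another order. Itga3, Itga6 and Itgb4 were each lowest in Msi1-null replicate 1 (-0.28, -0.21 and -0.21, log2), and Itga6 and Itgb4 were highest in Msi1-null replicate 3 (0.22 and 0.19). The mean of 10 epithelial markers was -0.24 and 0.26 in these 2 arrays. In wild-type replicates 1, 2 and 3 and Msi1-null replicate 2 it was 0.07, -0.08, 0.09 and -0.10, where Itgb4 had the opposite sign each time (-0.07, 0.10, -0.05 and 0.04). Itga6 had the opposite sign in wild-type replicate 1 (-0.13) and Msi1-null replicate 2 (0.13). Its sign was the same in wild-type replicates 2 and 3 (-0.18 and 0.18). Itga3 was highest in wild-type replicate 2 (0.24), where the epithelial mean was below 0. Their summed intensity ranged from 56754 to 65138 in wild-type and from 53353 to 74375 in Msi1-null arrays, and all 10 exceeded the background throughout. Their part in the values of Itga3, Itga6 and Itgb4 was not tested. Acinar markers had lower means for 8 of 8 genes in Msi1-null arrays, with a median log2 difference of -1.58. The genotypes did not overlap at 2 of the 8, beside 8.28% of all genes read the same way. With limma 7 of the 8 had an unadjusted p below 0.05, beside 3.46% of all genes, and 0 had an adjusted one. The mean of these markers set Msi1-null replicates 1 and 2 (-1.65 and -0.94) apart from Msi1-null replicate 3 (0.31), and Itga3 was lowest in the same 2 arrays. This part too was not tested.

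**Figure D3:**
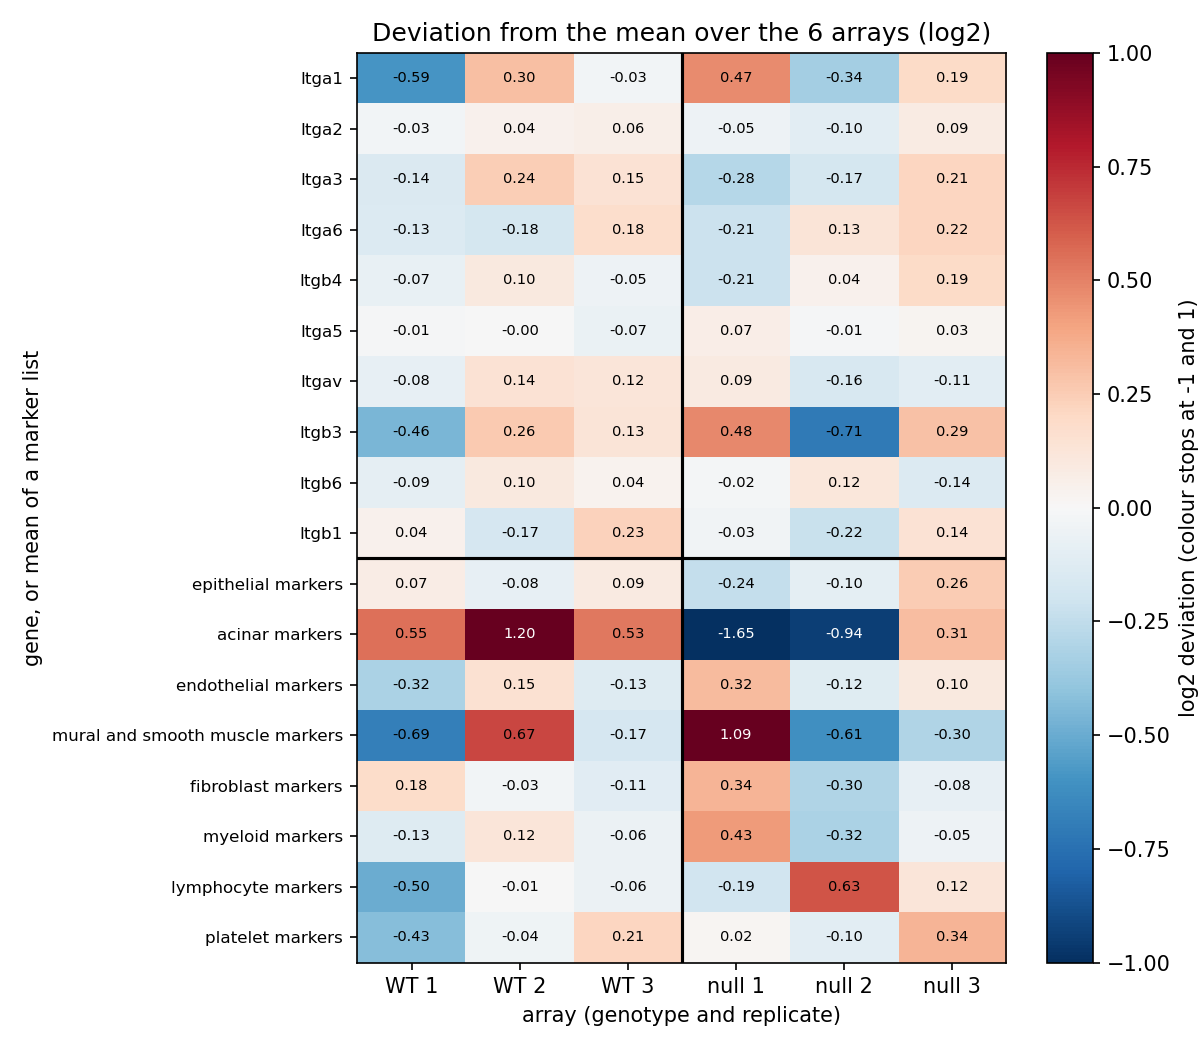
Deviation of each integrin gene (upper rows) and of the mean of each marker list (lower rows) from its mean over the 6 arrays, on the log2 scale, in wild-type (WT) and Msi1-null (null) replicates 1 to 3; numbers give the deviation and colours stop at -1 and 1. Itga1 and Itgb3 share their high and low arrays with the mural and smooth muscle markers in replicates 1 and 2 of each genotype; in the third replicates Itgb3 has the opposite sign, and so does Itga1 in the Msi1-null one. Itga6 and Itgb4 have their lowest and highest values in the same arrays as the epithelial markers, but Itgb4 has the opposite sign in the other 4 arrays. Itga6 has the opposite sign in wild-type replicate 1 and Msi1-null replicate 2.

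By Pearson correlation over the 6 arrays among 9609 other genes with a mean log2 value of at least 8, the gene most like Itgb3 was Cd93, a surface protein of endothelial and myeloid cells (r = 0.997). The gene most like Itga1 was P2ry6, a nucleotide receptor (r = 0.996), that most like Itga6 was Ugdh, UDP-glucose dehydrogenase (r = 0.996), and that most like Itgav was Cald1, the actin-binding protein caldesmon (r = 0.987). Those for Itga2, Itga3, Itga5, Itgb1, Itgb4 and Itgb6 were Baz1a, Iffo2, Parp12, Slc12a4, Smg5 and Samd5, with r between 0.987 and 0.998. Each is the highest of 9609 values over only 6 arrays that share tissue composition and normalization, so these are descriptions without a test.

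The other parts of the integrin system were read from 7 lists of genes chosen by function, with 74 of 81 genes measured. With limma 0 of the 74 had an adjusted p below 0.05 and 6 an unadjusted one (3.46% of all genes), 7 of 74 did not overlap between genotypes (8.28% of genes read the same way), and 31 differences were positive and 43 negative. Among 7 further integrin subunits of non-leukocyte cells, 3 were higher and 4 lower on average, with a median of -0.05. Itga9, the α9 subunit that binds tenascin and other ligands with β1, had the largest difference, in either direction, of the integrin subunits listed. It read 153, 355 and 163 in wild-type and 389, 459 and 418 in Msi1-null arrays. All 3 Msi1-null arrays lay above the wild-type arrays, but wild-type replicate 2 came close to them. Wild-type replicate 1 (153.0) was below its array background of 154.5, and wild-type replicate 3 (162.5) was just above its own of 160.2. The log2 difference was 1.02 ± 0.30 (SE; 95% interval 0.32 to 1.72; exact permutation p = 0.1, the smallest possible), which did not pass the adjusted threshold. Its other 2 probe sets gave 0.22 ± 0.16 (1450029_s_at) and 0.06 ± 0.06 (1420860_at, SE), and both overlapped between genotypes; with the 3 averaged the difference was 0.43.

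Itga8, the α8 subunit of mesenchymal cells, read 155, 176 and 151 in wild-type and 119, 136 and 129 in Msi1-null arrays. Its genotypes did not overlap either (-0.32 ± 0.08, SE; exact permutation p = 0.1), but only 2 arrays exceeded the background, and the dimmer probe set 1427489_at gave 0.09 ± 0.04. Itgb8, an αv partner named after its values were seen, was the third of 7 subunits of this list without overlap (-0.24 ± 0.09, SE). Over all genes read the same way 8.28% did not overlap, and of these 3 subunits only Itgb8 exceeded the background in all 6 arrays. Among 7 leukocyte and platelet integrins 5 were higher and 2 lower, with a median of 0.27. Those with the smallest unadjusted values were Itgae, the αE subunit of intraepithelial T cells, and Itgb7, the β7 subunit of gut-homing lymphocytes, at 0.29 ± 0.12 and 0.34 ± 0.15 (SE). The genotypes did not overlap at Itgb7, with a highest wild-type value of 275 and a lowest Msi1-null value of 279, and its difference was 0.21 once wild-type replicate 1 was left out. Lymphocyte markers were higher for 9 of 9 genes with a median of 0.39; their summed intensity ranged from 1331 to 1866 in wild-type and from 1635 to 3077 in Msi1-null arrays, 3 of 9 exceeded the background in all arrays and 1 in none. The mean deviation of these markers was highest in Msi1-null replicate 2 (0.63), as was Itgb7 (355). Itgae was highest in Msi1-null replicate 1 (314), where that mean was -0.19. Both genes and that mean (-0.50) were lowest in wild-type replicate 1. The part of these markers in the values of Itgae and Itgb7 was not tested.

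The cytoplasmic adaptors, which link integrin tails to actin and to kinases, had lower means for 17 of 22 genes, with a median of -0.08 and 0 unadjusted values below 0.05. Their mean deviation was -0.16 in Msi1-null replicate 2, beside 0.08 and 0.01 in Msi1-null replicates 1 and 3 and 0.003 to 0.06 in wild-type arrays. Vcl, vinculin, and Pxn, paxillin, differed by -0.17 ± 0.12 and -0.18 ± 0.12, and Tln1, talin 1, by -0.02 ± 0.12 (SE). Among 7 hemidesmosome and membrane partners, 3 were higher and 4 lower. Cd82, a tetraspanin that associates with laminin-binding integrins, read 1306, 1497 and 1594 in wild-type and 1617, 2018 and 2115 in Msi1-null arrays, without overlap (0.38 ± 0.14, SE; exact permutation p = 0.1), but its difference was 0.20 with all its probe sets averaged. Dst, the dystonin gene whose epithelial form links β4 to keratin, differed by -0.28 ± 0.14 (SE), and by -0.16 with probe sets averaged. Plec, plectin, differed by -0.15 ± 0.19 and Cd151, the tetraspanin partner of α3 and α6, by -0.07 (-0.065 ± 0.093, SE). Col17a1, the hemidesmosomal collagen, stayed below background at 79.0 to 83.5.

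Of the ligands, laminin chains had lower means for 7 of 10 genes with a median of -0.11. Their mean deviation was -0.33 in Msi1-null replicate 2, -0.01 and 0.17 in Msi1-null replicates 1 and 3 and 0.00 (0.002) to 0.09 (0.085) in wild-type arrays. Lamb3 and Lama3, chains of the epithelial laminin that binds α3β1 and α6β4, differed by -0.31 ± 0.23 and -0.15 ± 0.44 (SE), and by -0.06 and 0.36 once Msi1-null replicate 2 was left out. Lama3 ranged from 629.9 in Msi1-null replicate 2 to 2292 in Msi1-null replicate 3, wider than the wild-type range of 1207 to 1872. Lama2, a chain of mesenchymal basement membranes, differed by -0.45 ± 0.30, with wild-type replicate 1 at 733 against 264 to 361 in the other arrays and -0.10 (-0.095) once that array was left out. Collagen chains had higher means for 7 of 9 genes with a median of 0.05, with Col3a1 at 0.17 ± 0.13 and Col5a1 at 0.20 ± 0.30 (SE). RGD and related ligands had lower means for 7 of 12. Thbs1, thrombospondin 1, read 2968, 2680 and 2938 in wild-type and 2527, 1853 and 2436 in Msi1-null arrays, without overlap (-0.34 ± 0.14, SE; exact permutation p = 0.1). Fn1, fibronectin, the ligand of α5β1, differed by -0.19 ± 0.12 (SE), and by -0.36 with its probe sets averaged. Leaving out Msi1-null replicate 2 gave -0.20 for Thbs1 and -0.05 for Fn1. The 6 genes with an unadjusted p below 0.05 in the limma fit of these lists were Itga8, Itga9, Itgb8, Itgae, Cd82 and Thbs1, and none passed the adjusted threshold.

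**Figure D4:**
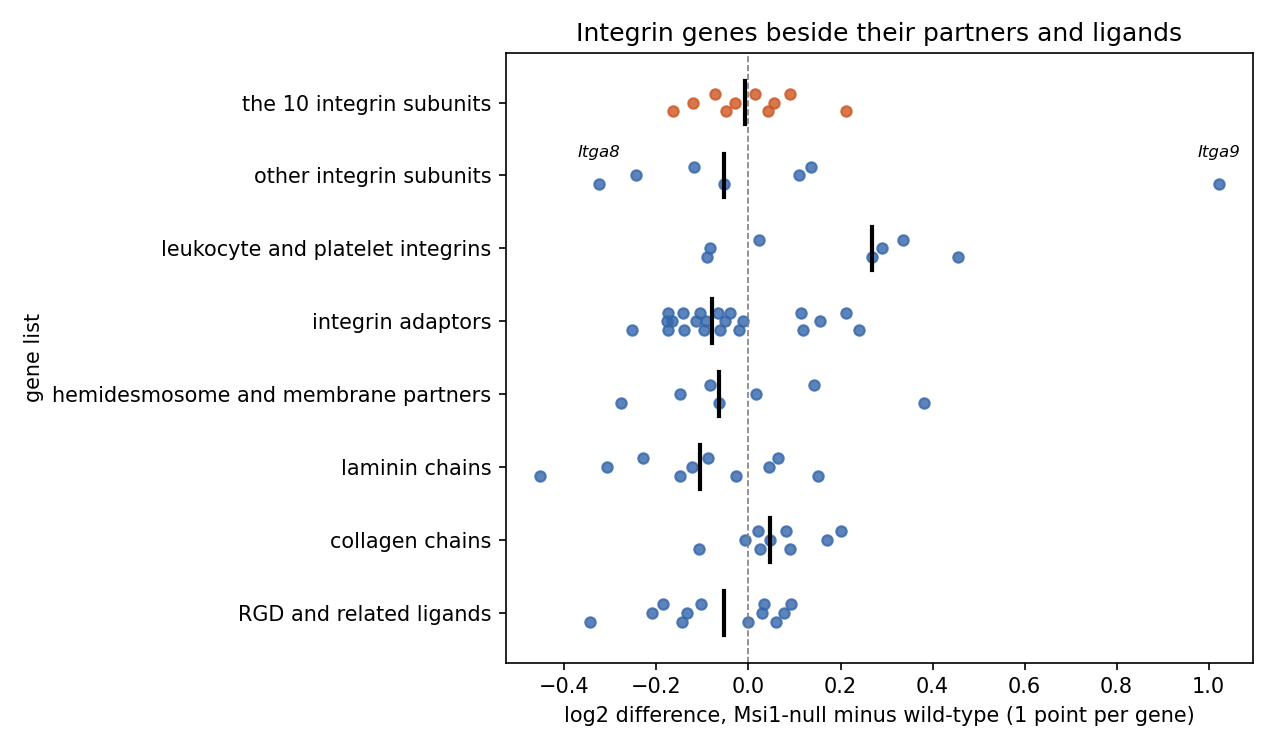
Log2 difference, Msi1-null minus wild-type, of each gene in the integrin list (orange) and in 7 lists of related genes (blue), 1 point per gene at its brightest probe set, with the list median as a black line; points are spread vertically only for legibility. The 10 integrin genes lie between -0.16 and 0.21, and Itga9 (1.02), Itga8 (-0.32) and Itgb8 (-0.24) lie outside that range among the other subunits.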

How the data were processed

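Per the labels' protocols, RNA of 6 samples was labelled with biotin and hybridised to Affymetrix arrays. The authors deposited 1 table of linear intensity values per probe set, made with GCRMA per the submitters' processing notes, with no version or settings given. GCRMA corrects background by probe sequence, normalizes by quantiles and summarises probes. No source used here says whether they were rescaled later. Such background correction can shrink differences of dim transcripts. The number of arrays limits the precision.

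Of 45101 probe sets, 64 controls were left out and 45037 tested; 34945 had 1 gene symbol in the platform annotation, 932 several and 9160 none listed. Symbols were updated by Entrez identifier with a RefSeq table of GRCm38.p6 (34741 matched), and a probe set with several symbols got no name. Values were analysed as log2(intensity + 1) with limma 3.58.1 in R 4.3.3 (genotype as the only term, eBayes with trend) and Benjamini-Hochberg adjustment over all probe sets at 0.05. SE and 95% intervals are limma's moderated ones; SD is over arrays. Simulated data for this comparison (45037 probe sets, 200 changed, 5 runs) had independent noise at limma's moderated variances. On these the fit found 94.0% of log2 changes of 1 and 99.2% of those of 2, with 11.4 false calls per run. The shares hold for such noise and for changed probe sets drawn at random, and not for the real arrays. In the real fit Itga9 at 1.02 and the acinar marker Cela3b at -1.98 did not pass the adjusted threshold. Genes of larger spread such as Itgb3 are not covered by the shares either.

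The members and lists were chosen with earlier results of these data known. Named genes are all members, the 2 genes of smallest unadjusted p in each related list, and direct partners fixed by role, of which some were not analysed here. The marker genes Gp9 and Treml1 were named after their values were seen. Alternatives were filters at a mean log2 of 7 and 8, a pseudocount of 16, quantile normalization, median centring, other prior variances, leaving out each array, array weights, a block on the replicate number and probe sets averaged per gene.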

Additional observations from a re-analysis of the deposited data

How the results depend on the processing

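Under 16 alternatives, 0 of the integrin genes and 0 genes of the related lists passed the adjusted threshold, with a smallest adjusted p of 0.817 for an integrin gene (limma, Benjamini-Hochberg). Over all probe sets 0 passed, except 1 (an Ighm probe set, 1.89, adjusted p = 0.0426) without Msi1-null replicate 1, so that count ranged from 0 to 1 with an array left out. The median log2 difference of the integrin genes ranged from -0.09 to 0.03 and moved by less than the spread between arrays. The number of integrin genes without overlap ranged from 0 to 2 when an array was left out, which leaves fewer values to overlap. No share over all genes is given for these smaller sets of arrays, so the counts are no result about the integrin genes. With array weights Itgav reached an unadjusted p below 0.05 in the limma fit (-0.21 ± 0.09, SE; adjusted p = 0.967), the only integrin gene to do so in any alternative. Of 158 values of integrin genes under the alternatives, 16 changed sign, in 6 genes. Over the left-out arrays Itga1 ran from -0.029 (without wild-type replicate 1) to 0.436, Itgb3 from -0.189 (without Msi1-null replicate 1) to 0.407, Itgb1 from -0.176 to 0.026 (without wild-type replicate 3), Itgb4 from -0.078 (without Msi1-null replicate 3) to 0.126 and Itgb6 from -0.094 to 0.032 (without Msi1-null replicate 3). With array weights Itga1 was -0.012 and Itgb3 -0.175, and with probe sets averaged per gene Itga5 was -0.037 and Itgb6 0.007. Among the partners, left-out arrays moved Lama3 from -0.575 to 0.356, Plec from -0.332 to 0.051, Tln1 from -0.090 to 0.044, Col17a1 from -0.001 to 0.041 and Col5a1 from -0.049 to 0.498. Without wild-type replicate 3 the integrin genes ran from -0.13 to 0.25. Itga9 lay between 0.805 and 1.41 with an array left out and at 0.432 with probe sets averaged per gene. Same-numbered arrays of the genotypes deviated together for replicates 1 and 3 (r = 0.17 and 0.28) and not for replicate 2 (-0.09). Between arrays of different number r ran from -0.26 (-0.257) to 0.06. These few values cannot decide whether the numbers pair the samples, and the labels state no pairing. With the replicate block 0 integrin genes and 0 probe sets passed the adjusted threshold. The block gave 2120 probe sets with an unadjusted p below 0.05 in limma, against 1355 without it. The filter at 8 left 8 of the 10 genes. Signals near background, as at Itga2 and Itgb6, limit what could be seen.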
